A study of Mus musculus with 6 samples.

Results

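The clustered protocadherins are the cadherin-like cell surface proteins encoded in the *Pcdha*, *Pcdhb* and *Pcdhg* clusters, which follow each other along mouse chromosome 18. They were chosen by symbol, after pairing the Ensembl identifiers of the expression table with the names in GENCODE M21. The rule took 23 of the 22380 identifiers in the table, 1 of them in *Pcdha*, 21 in *Pcdhb* and 1 in *Pcdhg*.

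In neurons, each cell turns on its own small set of clustered protocadherins, and the proteins bind copies of themselves on neighbouring cells, so that branches of the same neuron recognise and avoid each other. In *Pcdha* and *Pcdhg*, each variable first exon has its own promoter and is spliced to constant exons that all isoforms of the cluster share, whereas each *Pcdhb* gene is a single exon with no constant part. Promoter choice is known to depend on DNA methylation, on CTCF and on cohesin.

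RNA was measured in mouse embryonic stem cells (mESC) cultured in 2i medium on fibroblast feeders, with 3 *Ctrl* and 3 *Tet iTKO* lines, each line from a different embryo. *Ctrl* lines carried *CreERT2* wt/ki, a tamoxifen-activated Cre, with the *Gt(ROSA)26Sor* H2B-EGFP reporter wt/ki. *Tet iTKO* lines carried the same alleles and in addition *Tet1/2/3* fl/fl, so that Cre removed exons of the 3 genes for the TET dioxygenases, which oxidize 5-methylcytosine. All 6 lines received 1 µM 4-OHT (4-hydroxytamoxifen, named tamoxifen in the labels) for 2.5 days and were grown for 4 more days, to day 6.5, and 4-OHT and the activated Cre were therefore shared by both groups. Live cells positive for CD326 and GFP and negative for Thy1.2 were sorted before RNA extraction, which selects cells that recombined the reporter. The comparison asks whether acute loss of the TET enzymes moved the level of any clustered protocadherin.

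Values are normalized counts, that is, reads per gene divided by a size factor for each library and rounded to whole numbers. They summed to between 3964824 and 4219665 per line, and the reads behind them were estimated at 3.67 to 5.10 M per line. The floor of this depth was set at 3 normalized counts, or 0.711 to 0.757 CPM (normalized counts scaled to a fixed total per line), and it covers counting error only. The stem cell genes *Dppa5a*, *Pou5f1*, *Utf1* and *Klf2* were abundant in every line. The neural markers were mixed, with *Dcx*, a gene of young neurons, at 0 in every line. *Stmn2* averaged 1980 in *Ctrl* and 1511 in *Tet iTKO*, and *Tubb3* averaged 678 and 679. Over the whole gene, *Tet1* was at 696, 682 and 716 in the *Ctrl* lines against 787, 895 and 753 in *Tet iTKO*, in normalized counts. *Tet2* had 249, 170 and 230 against 233, 268 and 211. *Tet3* had 28, 13 and 13 against 10, 3 and 3. Of these, *Tet3* alone was lower in every *Tet iTKO* line than in every *Ctrl* line, and whole-gene values cannot set the floxed exons apart from the rest of each gene.

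The 3 clusters differed sharply in level. The *Pcdhb* genes and the *Pcdha* identifier were at or near 0 in every line of both groups, and a single *Pcdhg* identifier held 99.7% of all normalized counts of the 23 members. That identifier was the 1 member of 23 that was tested, and it was not called in either direction in the main fit. Of all genes tested, 18.4% were called lower and 16.4% higher.

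**Figure D1:**
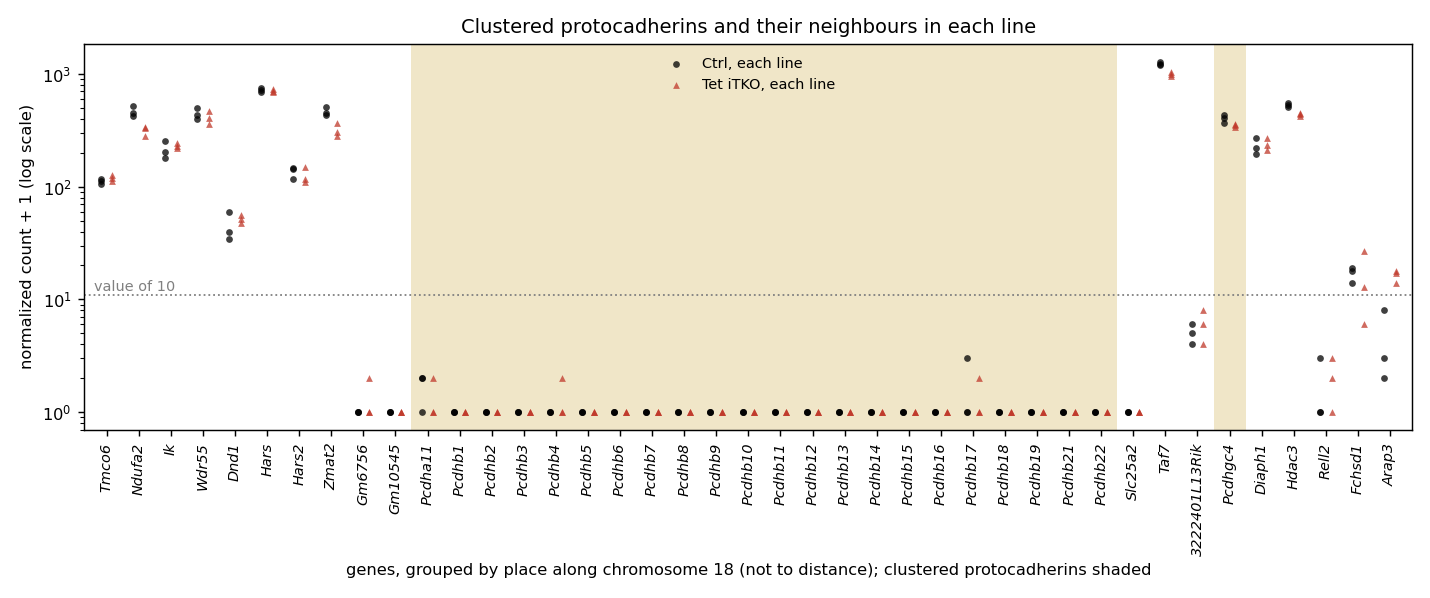
Normalized count plus 1 on a log axis for each of the 23 clustered protocadherins (shaded) and 18 neighbouring genes, grouped by their place along chromosome 18 and not drawn to distance. Each black circle is a *Ctrl* line and each red triangle a *Tet iTKO* line. From *Pcdha11* to *Pcdhb22* no value exceeded 2, while *Pcdhgc4* and the genes *Zmat2*, *Taf7* and *Hdac3* around the clusters lay far above them.

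All of the *Pcdhb* genes annotated in GENCODE M21 except *Pcdhb20*, which was not analysed here, had an identifier of their own, from *Pcdhb1* to *Pcdhb22*. Of these 21 genes, 19 were at 0 in all 6 lines, which is 90.5% of the cluster. Among all identifiers of the table, 28.2% were at 0 in all 6 lines, and among those with a symbol 24.4%. The exceptions, named here after their values were seen, were *Pcdhb4* and *Pcdhb17*. *Pcdhb4* was at 0, 0 and 0 normalized counts in *Ctrl* against 0, 1 and 0 in *Tet iTKO*. *Pcdhb17* was at 2, 0 and 0 in *Ctrl* against 0, 1 and 0 in *Tet iTKO*. Both stayed under the floor of 3 in every line.

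Summed over the 21 genes, the *Pcdhb* cluster came to 2, 0 and 0 in *Ctrl* against 0, 2 and 0 in *Tet iTKO*. The mean was 0.667 ± 1.15 (SD, n = 3) in both groups, and the groups overlapped. The whole cluster reached at most 0.504 CPM in any line. No fold is given, since both groups were under the floor. In the fit without a filter on low values, neither *Pcdhb4* (limma adjusted p = 0.59) nor *Pcdhb17* (limma adjusted p = 0.83) was called, and a change between levels below 3 normalized counts per gene was not detectable at this depth.

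The *Pcdhb* genes resemble each other in sequence, and the authors kept only reads with 1 place in the genome. A search of the M21 transcripts for runs of 50 bases, the read length, showed how much of each gene such reads could reach. For 20 of the 21 genes, at least 88.7% of the runs of 50 bases occurred in no other gene. *Pcdhb12* was the exception with 35.8%. Within the annotated transcripts, the other *Pcdhb* genes were thus mostly distinct. Copies elsewhere in the genome were not searched, and the cause of the zeros was not tested.

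In the *Pcdha* cluster, the table held 1 identifier, which carries the name *Pcdha11* (ENSMUSG00000007440). Its normalized counts were 1, 0 and 1 in *Ctrl* against 0, 1 and 0 in *Tet iTKO*, all under the floor. The *Ctrl* mean was 0.667 ± 0.577 (SD, n = 3) and the *Tet iTKO* mean 0.333 ± 0.577 (SD, n = 3). The groups overlapped, and no fold is given for values under the floor. In the fit without a filter on low values, *Pcdha11* was not called (limma adjusted p = 0.65).

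M21 annotates 14 identifiers in *Pcdha* and 22 in *Pcdhg*, against 1 of each analysed here. The remaining 13 in *Pcdha* and 21 in *Pcdhg* have identifier numbers above 92627, the highest in the table, and were not analysed here. Which exons the counting gave to *Pcdha11* and *Pcdhgc4* is not stated in the sources used here. The values under these names may therefore include reads from the shared constant exons or from other isoforms of the same cluster, and isoform choice within *Pcdha* or *Pcdhg* could not be read from them.

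The *Pcdhg* identifier, named *Pcdhgc4* (ENSMUSG00000023036) after one of the C-type isoforms at the end of the cluster, was well expressed. The *Ctrl* lines stood at 406, 428 and 369 normalized counts and the *Tet iTKO* lines at 335, 353 and 359. Every *Tet iTKO* line was below every *Ctrl* line, by a margin of 10 normalized counts between the nearest lines. Such a separation was found for 22.9% of the 10524 genes tested.

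*Pcdhgc4* averaged 401 ± 29.8 (SD, n = 3) over the *Ctrl* lines and 349 ± 12.5 (SD, n = 3) over the *Tet iTKO* lines, or 87.0% of the *Ctrl* mean. On the log2(normalized count + 1) scale the fold change was -0.20 (standard error 0.10, 95% interval -0.39 to -0.0025). It missed the threshold of 0.05 after adjustment (limma with Benjamini-Hochberg adjustment over all genes tested, unadjusted p = 0.0473, adjusted p = 0.11). In this comparison 18.4% of all genes tested were called lower and 16.4% higher. With 1 member tested, the count of 0 called members cannot set the clusters apart from these shares. *Pcdhgc4* was the 1 member of 23 with a mean of at least 10, and the other 22 were not tested.

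The size of the difference was ordinary for the table. The median log2 fold change of all genes tested was 0.012, and 30.6% of them had a lower value than *Pcdhgc4*. Its mean level was above that of 75.5% of the genes tested. Of 1068 genes with a mean near that of *Pcdhgc4*, 306 (28.7%) were called lower and 171 higher, with a median log2 fold change of -0.06. In bulk RNA, fewer cells with a transcript and less transcript per cell cannot be told apart.

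**Figure D2:**
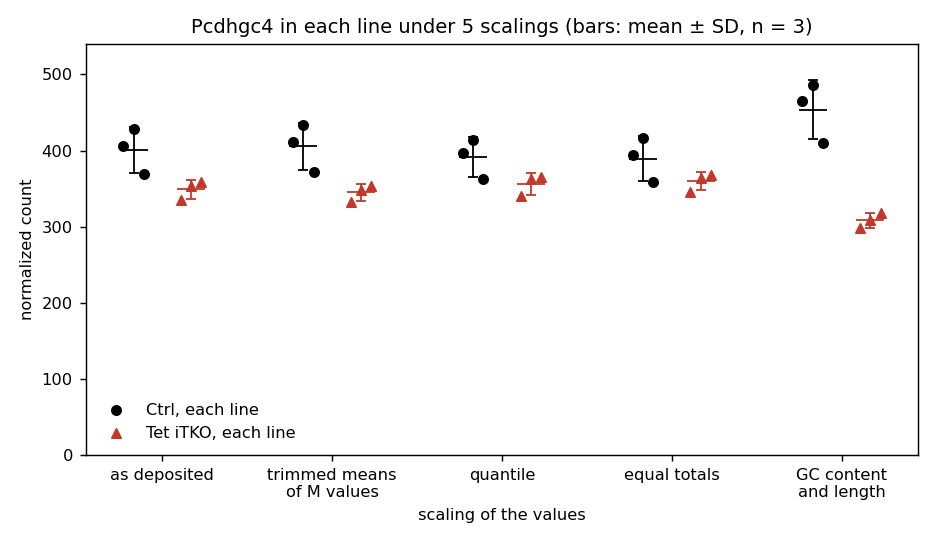
Normalized counts of *Pcdhgc4* in the 3 *Ctrl* lines (black circles) and 3 *Tet iTKO* lines (red triangles) as deposited and after 4 other scalings, with bars for the mean ± SD (n = 3). The groups stayed apart as deposited, with trimmed means of M values and with the correction for GC content and length, and overlapped with quantile normalization and equal totals.

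The separation of the groups depended on the scaling. In CPM, *Pcdhgc4* was at 96.2, 102 and 87.4 in *Ctrl* against 84.5, 89.0 and 89.8 in *Tet iTKO*, so that 2 *Tet iTKO* lines were above the lowest *Ctrl* line. With the totals made equal, the log2 fold change was -0.11 (limma adjusted p = 0.38).

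A correction of each library for transcript length and GC content moved the value the other way, to -0.55 (limma adjusted p = 2.1e-05), which passed the threshold. Across 10457 genes, the log2 fold change rose with GC content (Spearman rho 0.258) and with length (0.293), as a description across genes that share these libraries. The *Pcdhgc4* transcript of M21 is 5024 bases long with 54.3% GC. Among 439 genes within 2 percentage points of its GC content and of similar length, the median log2 fold change was 0.25, with 152 called higher and 20 lower, and 12.3% had a lower value than *Pcdhgc4*. With the length and GC content set to the medians of the 22 annotated *Pcdhg* genes, 4722 bases and 53.0%, the corrected value was -0.48 (limma adjusted p = 0.00016). Whether the trend with GC content and length comes from the libraries or from the cells was not tested.

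**Figure D3:**
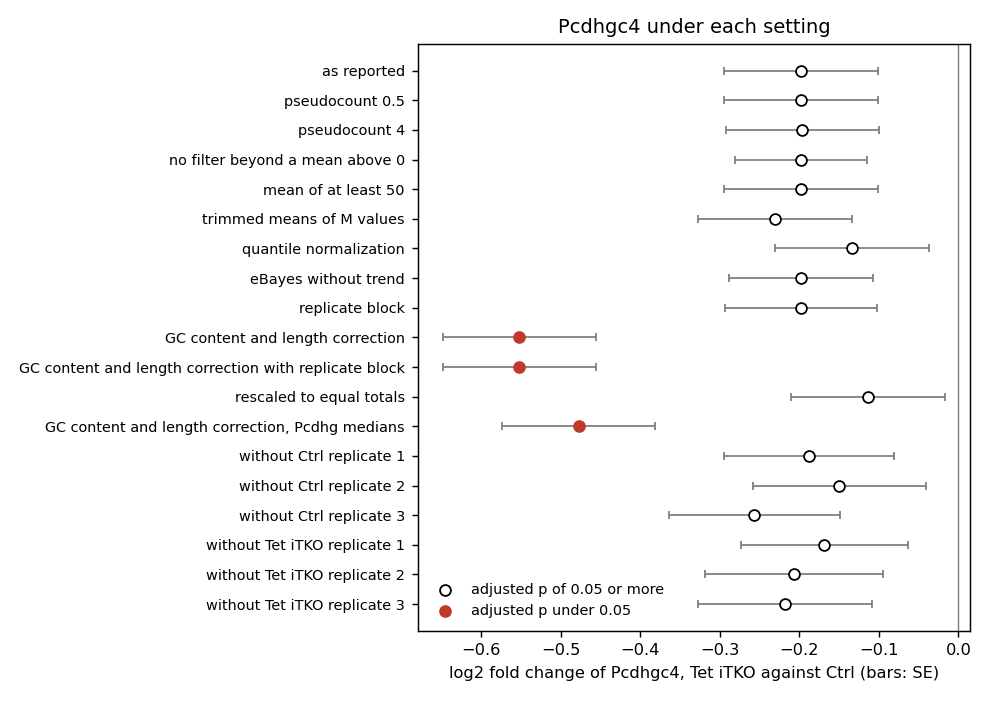
Log2 fold change of *Pcdhgc4* (*Tet iTKO* against *Ctrl*, bars are standard errors) as reported and under 18 other settings, with filled points where the limma adjusted p was under 0.05. Every value was negative, from -0.55 to -0.11, and only the 3 settings with a correction for GC content and length passed the threshold.

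Per length, the level of *Pcdhgc4* rests on which exons were counted. Over the 5596 exon bases of *Pcdhgc4* alone, the means were 71.7 normalized counts per kb in *Ctrl* and 62.4 in *Tet iTKO* mESC. Over the 70891 exon bases of all 22 *Pcdhg* genes, they were 5.66 and 4.92. Of the 5596 bases, 2119 are constant exons shared with the cluster, and 62.9% of the runs of 50 bases in the transcript occur in no other gene. Smart-Seq2 libraries do not keep the strand, although the counting used a stranded setting, so reads from *Pcdhg* and from a gene on the opposite strand cannot be told apart. The opposite-strand genes of M21 that overlap *Pcdhg* exons share 0 bases with the exons of *Pcdhgc4*. With the exons of any *Pcdhg* gene they share from 406 (*Gm37118*) to 5187 bases (*Gm26672*). On the same strand, the M21 genes that overlap *Pcdhgc4* exons share from 91 (*Gm37013* and *Gm37388*) to 628 bases (*Gm38182*) with them. None of these genes was analysed here. The part of reads from any of these genes in the value was not tested.

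The *Pcdhg* sum equals the value of its single identifier, with a log2 ratio of group means of -0.20 against a pooled SD between lines of 0.09. A summed comparison of C-type with other isoforms was not possible with 1 identifier per cluster.

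Protocadherins encoded outside the clusters are separate genes with cadherin repeats of their own, and all 12 of those listed were low. None reached a mean of 10, and *Pcdh10*, *Pcdh11x*, *Pcdh12*, *Pcdh15* and *Pcdh20* were at 0 in all 6 lines. *Pcdh1* was at 0, 6 and 13 in *Ctrl* against 6, 12 and 16 in *Tet iTKO*, with overlapping groups. *Pcdh19*, which acts with N-cadherin in cell adhesion, was at 3, 3 and 3 in *Ctrl* against 10, 10 and 7 in *Tet iTKO*. The *Pcdh19* groups did not overlap, but the *Ctrl* lines were at the floor. In the fit without a filter on low values, *Pcdh19* missed the threshold with 1.31 on the log2 scale (limma adjusted p = 0.095). *Pcdh8* missed it in the same fit with 1.53 (limma adjusted p = 0.079). Its values were 0, 1 and 0 in *Ctrl* against 3, 1 and 5 in *Tet iTKO*, with overlapping groups.

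**Figure D4:**
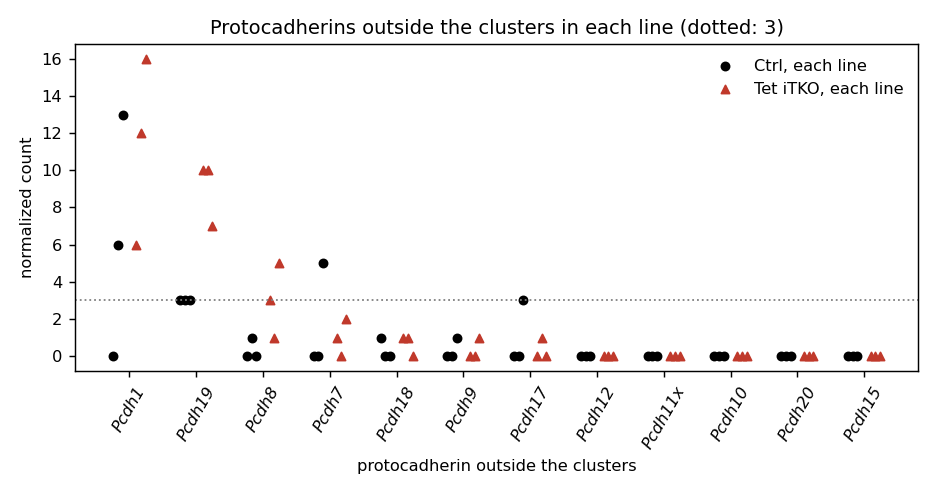
Normalized counts of the 12 protocadherins encoded outside the clusters in each *Ctrl* line (black circles) and *Tet iTKO* line (red triangles), with the floor of 3 as a dotted line. *Pcdh1* reached 16 and *Pcdh19* 10 in *Tet iTKO* lines, and no other gene exceeded 5.

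Genes inside the clusters or within 200 kb of them were used to place the members in their neighbourhood. Of 18 such neighbours, 12 were tested, and 0 were called higher and 4 lower, beside 16.4% and 18.4% of all genes tested. The median log2 fold change of these 12 was -0.11, beside 0.012 for all genes. *Taf7*, a subunit of the general transcription factor TFIID, lies between *Pcdhb* and *Pcdhg*. It was at 1186, 1210 and 1285 in *Ctrl* against 1028, 1000 and 961 in *Tet iTKO* (log2 fold change -0.30, limma adjusted p = 0.00033). Its neighbour *Slc25a2*, a mitochondrial carrier gene, was at 0 in all 6 lines, so that a silent and an abundant gene lay side by side between *Pcdhb* and *Pcdhg*.

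*Hdac3*, a histone deacetylase gene beyond *Pcdhg*, fell by 0.28 on the log2 scale (limma adjusted p = 0.0097). Before *Pcdha*, *Ndufa2*, which encodes a subunit of respiratory complex I, fell by 0.55 (limma adjusted p = 3.8e-05) and *Zmat2* fell by 0.54 (limma adjusted p = 6.9e-05). Of these 4 calls, that of *Zmat2* was kept under all 4 other scalings. *Ndufa2* and *Taf7* lost theirs under the correction for GC content and length (-0.04 and -0.10), and *Hdac3* under quantile normalization and equal totals. Differences between *Pcdhgc4* and these neighbours were not tested.

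CTCF binds protocadherin promoters and their enhancers, and cohesin joins them. *Ctcf* averaged 547 ± 41.0 (SD, n = 3) over the *Ctrl* lines and 511 ± 32.0 (SD, n = 3) over the *Tet iTKO* lines (limma adjusted p = 0.41). Of 11 tested genes of CTCF and cohesin, 0 were called higher and 1 lower, beside 16.4% and 18.4% of all genes tested. Their median log2 fold change was -0.02, which turned positive under quantile normalization (0.02) and equal totals (0.07). The call was *Wapl*, which releases cohesin from DNA, at -0.20 (limma adjusted p = 0.041), and it was lost under those same scalings.

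Of 12 tested genes of DNA methylation and silencing, 4 were called higher and 2 lower, beside 16.4% and 18.4% of all genes tested, with a median of 0.14. Under the correction for GC content and length the counts turned to 1 higher and 6 lower, and the median to -0.17. *Setdb1*, a histone H3K9 methyltransferase, was at 433, 381 and 363 in *Ctrl* against 494, 543 and 609 in *Tet iTKO* (log2 fold change 0.48, limma adjusted p = 9.7e-05), and its call was kept under all 4 other scalings. The DNA methyltransferases *Dnmt3a* (0.25, limma adjusted p = 0.0012), *Dnmt3b* (0.24, limma adjusted p = 3e-04) and *Dnmt1* (0.21, limma adjusted p = 0.0088) were called higher in the deposited scaling, and all 3 turned negative under that correction (-0.32, -0.01 and -0.18), in which *Dnmt3a* (limma adjusted p = 6.6e-05) and *Dnmt1* (limma adjusted p = 0.027) were called lower. *Dnmt3l*, a cofactor of de novo methylation, fell by 0.49 (limma adjusted p = 3.8e-06), and *Uhrf1*, which guides maintenance methylation, fell by 0.15 (limma adjusted p = 0.025), a call lost under quantile normalization and equal totals. *Smchd1*, a chromatin protein known to silence clustered protocadherins, had 180, 168 and 128 against 222, 195 and 177, with overlapping groups (log2 fold change 0.33, limma adjusted p = 0.078).

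Proteins that bind the constant cytoplasmic parts of the protocadherins, or act with them inside the cell, include the kinases FAK and PYK2 and the WAVE complex of actin assembly. Of 11 tested genes of this list, 4 were called higher and 2 lower, beside 16.4% and 18.4% of all genes tested, with a median of 0.13. *Cyfip2* (1.38, limma adjusted p = 0.015), *Abi2* (0.52, limma adjusted p = 0.0076) and *Wasf2* (0.31, limma adjusted p = 0.003), all of the WAVE complex, and the kinase gene *Fyn* (0.84, limma adjusted p = 0.005) were higher. *Ptk2b*, which encodes PYK2, fell by 0.59 (limma adjusted p = 0.014), and *Brk1*, the smallest WAVE subunit, fell by 0.50 (limma adjusted p = 4.4e-06). *Wasf2* turned negative (-0.09) and *Cyfip2* and *Brk1* lost their calls under the correction for GC content and length, and *Cyfip2* also under quantile normalization. Among 6 tested genes for the proteases that cut protocadherins, 0 were called higher and 1 lower, which was *Psenen* of γ-secretase at -0.57 (limma adjusted p = 0.035), a call lost at equal totals and under that correction.

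**Figure D5:**
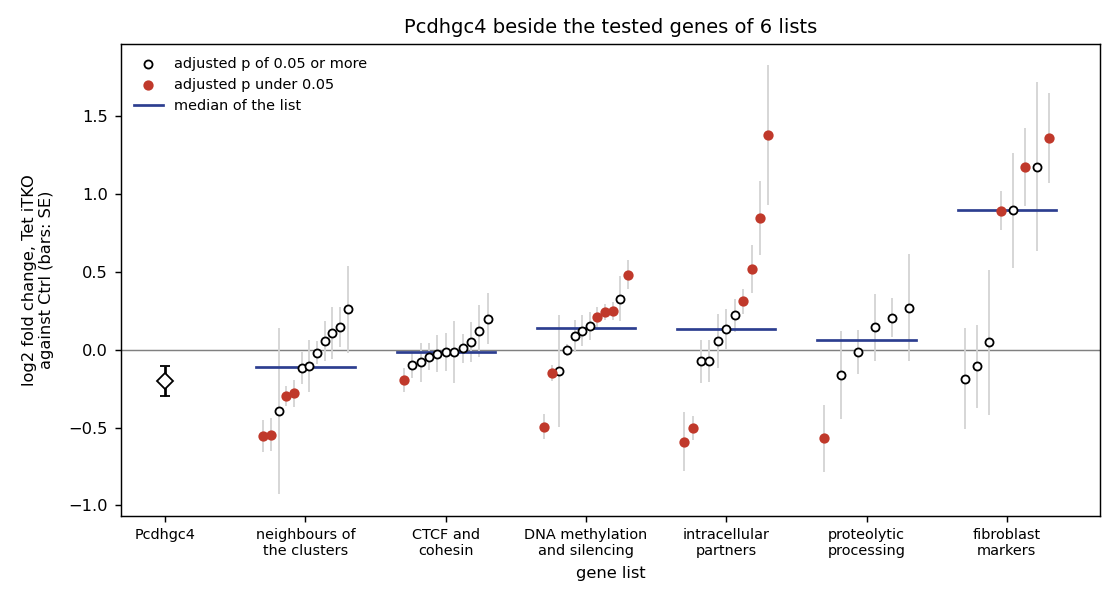
Log2 fold changes (*Tet iTKO* against *Ctrl*, bars are standard errors) of *Pcdhgc4* (diamond) and of the tested genes in 6 lists, with filled points where the limma adjusted p was under 0.05 and a blue line at each list's median. *Pcdhgc4* lay at -0.20, below the median of all 6 lists and inside the range of the neighbours, from -0.55 to 0.26.

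RNA of other cell types could bear on members that are low. Of 20 fibroblast markers, 8 were tested and 3 were called higher and 0 lower, beside 16.4% and 18.4% of all genes tested. The summed list ran from 377 to 404 normalized counts in *Ctrl* and from 655 to 696 in *Tet iTKO* mESC. *Col3a1* (1.36), *Col1a2* (1.17) and *Col1a1* (0.89) were the calls, of which *Col1a1* lost its call under the correction for GC content and length (0.27), while *Acta2* was at -0.11 (limma adjusted p = 0.79). *Thy1*, the marker used to sort feeders away, had 30, 46 and 41 against 47, 35 and 23. *Col1a1*, the largest entry of the sum, averaged 167 in *Ctrl* and 311 in *Tet iTKO*. Markers at low levels went both ways, with *Dcn* averaging 6.67 in *Ctrl* and 3 in *Tet iTKO*, and *Fbn1* 1.67 and 10.3. The part of fibroblast RNA in the *Pcdhg* value was not tested.

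The 15 neural markers in the table summed to between 2608 and 2935 in *Ctrl* and between 2306 and 2331 in *Tet iTKO* mESC. Of the 5 tested, 0 were called higher and 1 lower, beside 16.4% and 18.4% of all genes tested. The call was *Stmn2* at -0.39 (limma adjusted p = 1.8e-06), and *Tubb3*, *Ncam1* and *Nes* were not called. *Stmn2* averaged 1980 in *Ctrl* against 1511 in *Tet iTKO*, and *Tubb3* 678 against 679. These genes held most of the neural sum, and its fall lay in *Stmn2*. Among the others, *Pax6*, *Neurod1* and *Nes*, named after their values were seen, were higher in every *Tet iTKO* line than in every *Ctrl* line. The share of all genes with that separation was not counted. The reverse separation, with every *Tet iTKO* line lower, was found for 22.9% of the genes tested. *Pax6* was at 4, 2 and 1 against 14, 11 and 11, *Neurod1* at 4, 8 and 8 against 10, 13 and 12, and *Nes* at 19, 17 and 16 against 40, 27 and 29. *Ncam1* leaned the other way, at 43, 37 and 23 in *Ctrl* against 21, 23 and 15 in *Tet iTKO*. Apart from *Stmn2*, the remaining neural markers were not separated in either direction. The 13 stem cell markers summed to between 30186 and 30519 in *Ctrl* and between 26146 and 27262 in *Tet iTKO* mESC. Of these 13, 3 were called higher and 5 lower, beside 16.4% and 18.4% of all genes tested. These calls turned to 5 higher and 3 lower under quantile normalization and to 5 and 4 at equal totals. *Dppa5a*, the most abundant of them, was at -0.39 as deposited (limma adjusted p = 4.1e-10) and at 0.15 (limma adjusted p = 0.0015) under the correction for GC content and length. The part of either list in the *Pcdhg* value was not tested.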

How the data were processed

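Smart-Seq2 libraries of 6 mESC lines were sequenced by the authors as paired reads of 50 bases, aligned with STAR to keep unique alignments, and counted per gene with HTSeq 0.7.1 (build mm9 and R 3.5.2 per the labels). The counting was run with the stranded setting, although Smart-Seq2 does not mark strand, and its effect on the values was not measured. The authors divided the counts by DESeq2 1.26.0 size factors and rounded them, and these deposited values are treated as a score. Because of the rounding, count models were not used. The annotation behind the counts is not given in the sources used here.

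Names, gene order, exon lengths and GC content came from GENCODE M21 (GRCm38), and since the builds differ no coordinates are given. Symbols were found for 20775 of 22380 identifiers. Reads on genes were estimated from the gaps and doubled steps that rounding leaves among low values, a method tested on simulated data.

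The 3 lines of each group entered limma 3.58.1 under R 4.3.3 (lmFit, eBayes with trend) as log2(value + 1), for genes averaging 10 or more, two-sided, with Benjamini-Hochberg adjustment over 10524 genes. The script was tested on simulated data. Members with a mean of at least 10 were named with their test, lower ones by their values or counts, list genes by an adjusted p under 0.05 (at most 4 per direction), and markers by abundance. Members and lists were chosen with earlier results of these data known. Alternatives were pseudocounts of 0.5 and 4, no filter, a mean of at least 50, quantile normalization, trimmed means of M values, no trend in eBayes, a replicate block, a loess correction (span 0.3) of each library for GC content and length, that correction with the block, and each line left out. The 2 alternatives of equal totals and of *Pcdhg* medians in the correction were added after seeing the data. Python 3.11.15, pandas 2.3.3 and NumPy 2.4.6 read the files. No sequences are printed.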

Additional observations from a re-analysis of the deposited data

How the results depend on the processing

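Under 18 alternatives, no clustered protocadherin was called higher, and the log2 fold change of *Pcdhgc4* stayed negative. In the 15 without a correction for GC content and length, it ran from -0.26 to -0.11, with limma adjusted p from 0.06 to 0.38. With the correction, *Pcdhgc4* was called lower, so that 1 member was called, at -0.55 (limma adjusted p = 2.1e-05), also -0.55 with the replicate block, and at -0.48 (limma adjusted p = 0.00016) with *Pcdhg* medians, an alternative chosen after seeing the data. The corrected log2 ratio of the *Pcdhg* sum was -0.56. Leaving out each line in turn gave -0.26 to -0.15 (limma adjusted p from 0.062 to 0.32).

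With the replicate number as a block and no correction, *Pcdhgc4* was at -0.20 (limma adjusted p = 0.10). The lines come from different embryos. The paper describes 3 independent experiments, and the labels do not say whether lines with the same number share one. The deviations of same-numbered lines correlated between -0.0054 and 0.0007. Over all genes, 1731 were called higher and 1934 lower, against 1075 and 1217 without the trend, 1018 and 2077 with the correction, and 2319 and 1428 at equal totals, a scaling chosen after seeing the data. Calls higher were thus 47.2% of all calls as reported, 32.9% with the correction and 61.9% at equal totals. The causes were not tested. With 3 lines a group and 1 member above the filter, changes among the other 22 members could not be measured.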
